A study of Homo sapiens with 12 samples.

Results

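The 10 genes described here mark the plasma cell, the antibody-secreting end stage of the B cell lineage and the normal counterpart of the multiple myeloma cell. They are the transcription factors IRF4, PRDM1 and XBP1, the coactivator POU2AF1, the elongation factor ELL2, the surface proteins SDC1, TNFRSF17 and CD38, and the secretory proteins MZB1 and JCHAIN. The members were taken by gene symbol, which gave 17 of the 47321 array probes. Of these, 16 were detected often enough to be tested among 19357 probes, and the one left out, an SDC1 probe (ILMN_1800038), was not above background on any array.

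Expression was measured in 3 human myeloma lines exposed for 8 h to PRIMA-1Met, a small molecule studied as a reactivator of mutant p53, or to its solvent DMSO. The 6 groups were MM.1S with 20 µM PRIMA-1Met and with DMSO, U266 with 40 µM and with DMSO, and 8226R5 with 40 µM and with DMSO, with 2 Illumina HumanHT-12 arrays in each. The labels give p53 as wild type in MM.1S, mutant in U266 and null in 8226R5, so that an effect of the line cannot be told apart from one of its p53 status, nor, in comparisons with MM.1S, from one of the dose. They say that cells were plated in duplicate and name no separate cultures, and the tests therefore rest on the scatter of these duplicate arrays, which may be technical.

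IRF4, PRDM1 (Blimp-1) and XBP1 are the core regulators of the plasma cell. IRF4 switches on the programme and myeloma cells depend on it, PRDM1 represses the genes of the B cell stage, and XBP1, spliced to its active form during the unfolded protein response, expands the secretory apparatus. ELL2 directs the immunoglobulin heavy chain transcript to its secreted form, POU2AF1 (OCA-B) works with octamer-binding factors, and the surface proteins SDC1 (CD138), TNFRSF17 (BCMA) and CD38 are targets of myeloma diagnosis and therapy.

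Promoter sequence was available from RefSeq (GRCh38.p14) for 7 of the 10 genes, as 10 windows of the 250 bases before a transcription start. Both strands were searched for the octamer ATTTGCAT, bound by the partners of POU2AF1, for the interferon-response type element, a pair of GAAA 2 bases apart, for CCACG, the core of the XBP1-binding element, and for the endoplasmic reticulum stress element, which is CCAAT, 9 bases of any kind and CCACG, so that it contains CCACG. The octamer was in 0 of 10 windows, against 1.63% of all 35116 windows of this length, and the GAAA pair was in 0 of 10, against 3.02%. CCACG was in 6 of 10, against 33.5% of all windows. One window, that of XBP1, held the full stress element, which was in 0.074% of all windows. ELL2, TNFRSF17 and POU2AF1 had no entry. The first 3 windows below are shown for their matches. PRDM1 is a transcription factor whose brightest probe, though not every probe, fell with treatment in every line. XBP1 fell in MM.1S and U266, and MZB1 is the gene whose brightest probe was called higher in MM.1S. The last window is that of a gene with no match that fell with XBP1. Capitals mark CCACG or its reverse complement and, in XBP1, the whole stress element, which begins 52 bases before the start. A match is a description of letters and not a measured binding site.
XBP1, chr22:28800570-28800819, minus strand: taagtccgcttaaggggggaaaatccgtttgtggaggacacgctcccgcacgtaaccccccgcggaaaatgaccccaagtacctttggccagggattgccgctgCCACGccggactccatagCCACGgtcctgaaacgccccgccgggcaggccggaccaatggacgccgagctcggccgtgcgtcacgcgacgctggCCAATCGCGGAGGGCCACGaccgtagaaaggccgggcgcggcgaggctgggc
PRDM1, chr6:106086086-106086335, plus strand: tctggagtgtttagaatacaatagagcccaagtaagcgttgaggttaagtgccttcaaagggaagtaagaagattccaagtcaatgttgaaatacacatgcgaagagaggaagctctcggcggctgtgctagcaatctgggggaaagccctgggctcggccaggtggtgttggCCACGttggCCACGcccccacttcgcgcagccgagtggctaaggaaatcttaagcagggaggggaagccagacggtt
MZB1, chr5:139389914-139390163, minus strand: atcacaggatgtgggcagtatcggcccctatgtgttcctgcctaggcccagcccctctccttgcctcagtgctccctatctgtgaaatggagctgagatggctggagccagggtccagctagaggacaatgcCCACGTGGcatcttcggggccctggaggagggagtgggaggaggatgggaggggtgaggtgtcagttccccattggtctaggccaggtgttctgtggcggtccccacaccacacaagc
JCHAIN, chr4:70666509-70666758, minus strand: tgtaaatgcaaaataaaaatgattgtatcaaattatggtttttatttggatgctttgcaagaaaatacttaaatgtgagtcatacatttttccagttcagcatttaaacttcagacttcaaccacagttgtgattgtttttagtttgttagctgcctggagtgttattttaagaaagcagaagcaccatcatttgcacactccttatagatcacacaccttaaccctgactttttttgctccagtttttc

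Values are the authors' quantile-normalized log2 values, in which 1 unit is a 2-fold difference. A probe was called above background on an array at a detection p under 0.01, and groups were compared in limma at a Benjamini-Hochberg adjusted p under 0.05 over all 19357 probes. Replicate arrays correlated at 0.985 to 0.997 over these probes. The treated MM.1S arrays stood apart: they detected 11815 and 12093 probes, against 15010 and 15389 with DMSO, and between 14164 and 16025 on the arrays of the other lines. Their 90th percentile signal was 212 and 215 intensity units, against 836 and 789 with DMSO. The standard deviation of the difference between replicates was 0.38 log2 units for treated MM.1S and 0.18 to 0.23 for the other groups. In this line 8 of 9 housekeeping genes were lower with PRIMA-1Met, where 46.0% of all probes were. The part of signal and noise in the MM.1S results was not tested.

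On the arrays labelled 8226R5 several markers went against the label of a myeloma line, and others did not. JCHAIN, TNFRSF17, CD38, IRF4 and POU2AF1 were not above background on any of these 4 arrays. CD3D, a subunit of the T cell receptor complex, was 11.94 to 12.13 there, detected on 4 of 4 arrays, and 4.33 to 5.02 in MM.1S and U266, detected on 0 of 8. CD3E (7.33 to 7.58, against 5.05 to 5.65) and, chosen after their values were seen, CD3G (9.27 to 9.85, against 5.31 to 6.07) and CD247 (11.36 to 11.48, against 5.94 to 6.58) were also higher on these arrays. CD247 was also detected on 3 of 8 MM.1S and U266 arrays. CD2 was detected on 0 of 4 8226R5 arrays and on 5 of 8 others. The B cell genes PAX5 and MS4A1 and the myeloid gene LYZ were not detected on any of the 12 arrays. The brightest probes of PRDM1, XBP1, ELL2, SDC1 and MZB1 were detected on all 12. Among B cell genes, SPIB was detected on 4 of 4 8226R5 arrays (7.64 to 8.72) and 0 of 8 others. CIITA was detected on both 8226R5 DMSO arrays and on 1 U266 DMSO array. The myeloid genes CD68 and CD14 were detected on 4 of 4 and 3 of 4 8226R5 arrays, and on 8 of 8 and 3 of 8 others. These arrays are called here by their label, and results for MM.1S and U266 were also fitted without them.

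In the DMSO controls, MM.1S carried the whole set above background, U266 all genes except CD38, and 8226R5 only 5 genes, namely PRDM1, XBP1, ELL2, SDC1 and MZB1 (plot of values by array). Of the 16 probes 14 were higher in MM.1S than in 8226R5 and 0 were lower, where 60.5% of all probes were called, 30.9% higher and 29.6% lower. U266 was higher than 8226R5 for 11 probes and lower for 2, where 63.5% were called, 32.1% higher and 31.4% lower. MM.1S was higher than U266 for 11 and lower for 2, where 57.1% were called, 29.2% higher and 27.9% lower.

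**Figure D1:**
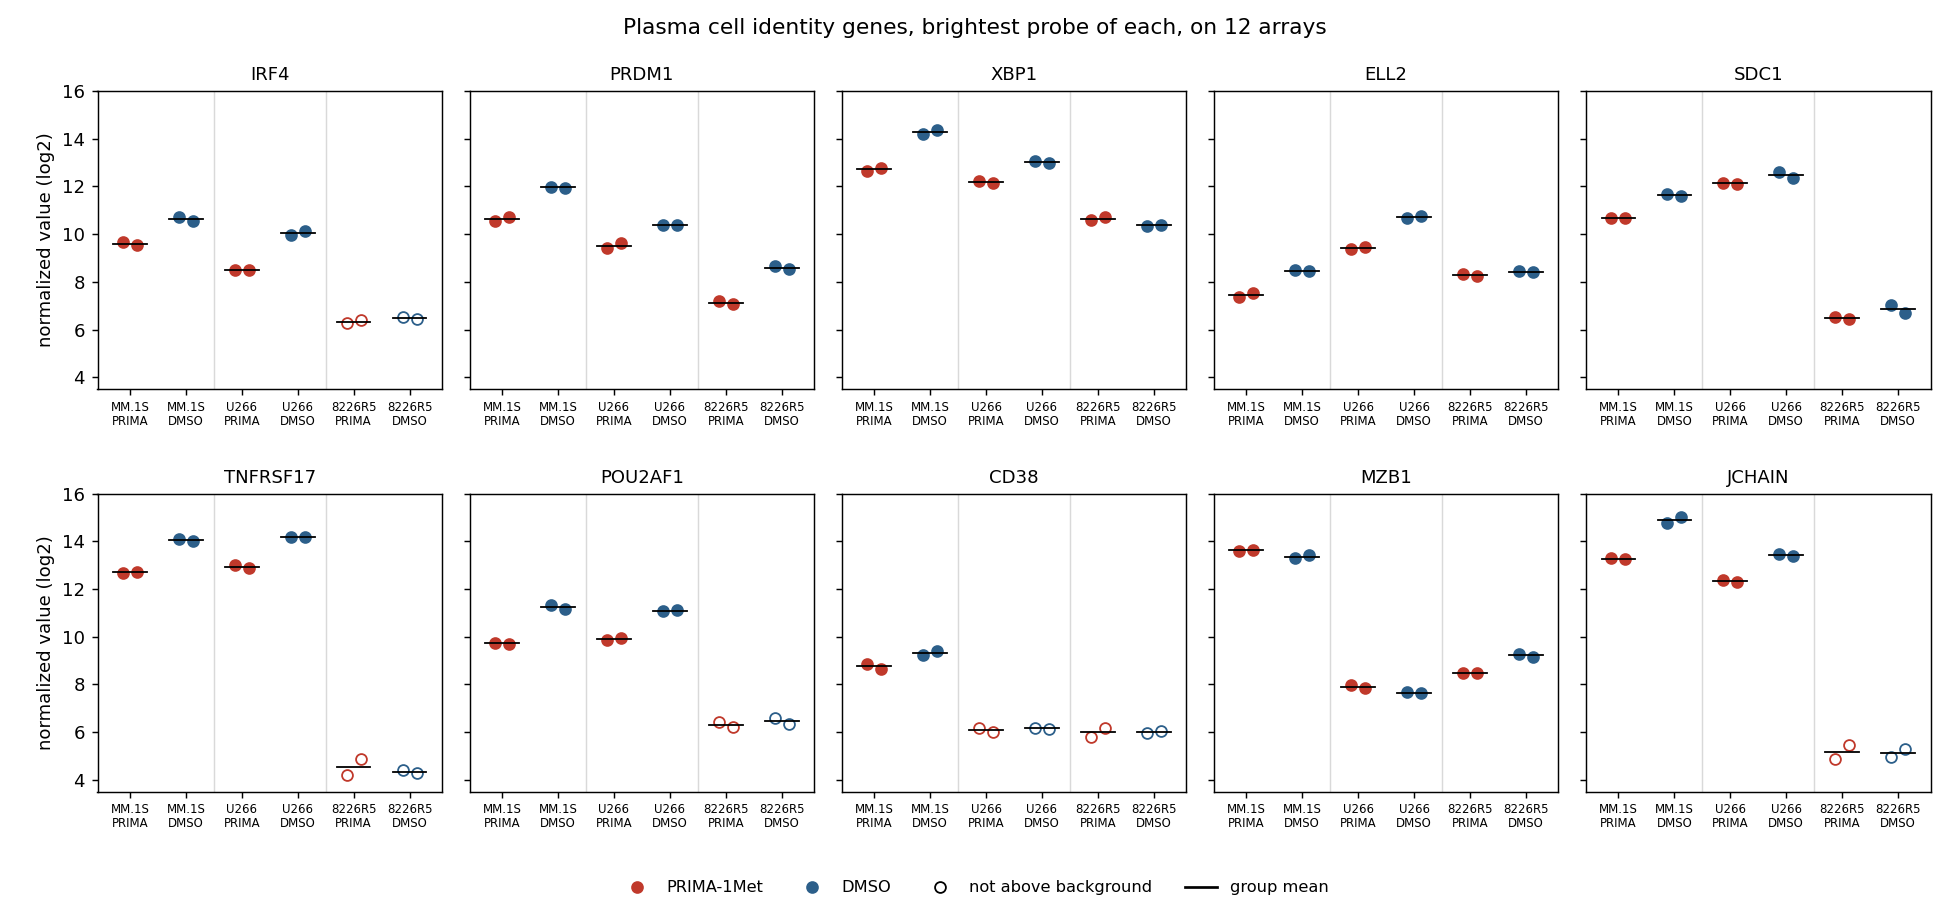
Normalized log2 value (vertical axis) of the brightest probe of each of the 10 genes on each array, with PRIMA-1Met left of DMSO in each line. Filled points were above background, open points were not, and bars are group means. JCHAIN and TNFRSF17 lie between 12.30 and 15.03 on the 8 MM.1S and U266 arrays and below 6 on the 4 arrays labelled 8226R5.

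JCHAIN, which joins immunoglobulin M and A chains into polymers, was at 14.78 and 15.03 in MM.1S controls, 13.45 and 13.38 in U266 controls, and 4.97 and 5.30 in 8226R5 controls. The order was MM.1S, U266, 8226R5 with no overlap. It was at least 315-fold higher in MM.1S than in 8226R5 and at least 112-fold higher in U266 than in 8226R5, since 8226R5 gave only a bound set by the dimmest detected probe. TNFRSF17, the receptor for the survival factors BAFF and APRIL, was at 14.09 and 14.03 in MM.1S and 14.18 and 14.16 in U266, a log2 difference of -0.11 ± 0.17 (SE) that missed the threshold (adjusted p = 0.616). In 8226R5 it was at 4.42 and 4.27, and MM.1S and U266 were at least 175-fold and at least 190-fold higher. The standard error above is pooled over all 6 groups, among them these 8226R5 arrays at background.

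POU2AF1 was at 11.32 and 11.15 in MM.1S and 11.07 and 11.10 in U266, and this difference of 0.15 ± 0.11 also missed the threshold (adjusted p = 0.285). In 8226R5 it was at 6.58 and 6.33, below detection. MM.1S was at least 24.9-fold and U266 at least 22.4-fold higher than 8226R5. IRF4 was higher in MM.1S (10.73 and 10.56) than in U266 (9.95 and 10.13) by 0.61 ± 0.10 (adjusted p = 0.000551). It was not above background in 8226R5 (6.52 and 6.44), and the bounds were at least 16.5-fold for MM.1S and at least 10.8-fold for U266.

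PRDM1 and XBP1 were detected in all 3 controls and stepped down in the order MM.1S, U266, 8226R5. The brightest PRDM1 probe was at 11.99 and 11.94 in MM.1S, 10.38 and 10.39 in U266, and 8.68 and 8.52 in 8226R5. The brightest XBP1 probe was at 14.20 and 14.38, 13.07 and 12.99, and 10.36 and 10.38 in the same order of lines. Each step was larger than the spread between arrays, with differences of 1.58 ± 0.10 (MM.1S minus U266) and 1.78 ± 0.10 (U266 minus 8226R5) for PRDM1 and 1.26 ± 0.09 and 2.66 ± 0.09 for XBP1 (limma adjusted p from 9.08e-09 to 1.85e-06).

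CD38, an enzyme of the cell surface that consumes NAD, was detected only in MM.1S, at 9.24 and 9.41. It was not above background in U266 (6.18 and 6.14) or in 8226R5 (5.95 and 6.04), so that MM.1S was at least 7.61-fold and at least 6.60-fold higher. SDC1, a heparan sulfate proteoglycan that holds plasma cells to the marrow matrix, had a different order, highest in U266 (12.59 and 12.37), then MM.1S (11.70 and 11.58), then 8226R5 (7.01 and 6.68). MM.1S was lower than U266 by -0.84 ± 0.12 (adjusted p = 0.000222) and U266 was higher than 8226R5 by 5.64 ± 0.12.

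ELL2 was highest in U266, at 10.68 and 10.77. MM.1S (8.48 and 8.45) and 8226R5 (8.46 and 8.40) overlapped, and their difference of 0.03 ± 0.08 missed the threshold (adjusted p = 0.744). MZB1, a chaperone-associated protein of the endoplasmic reticulum that aids antibody assembly and secretion, was at 13.28 and 13.40 in MM.1S on its brighter probe. It was lower in U266 (7.68 and 7.62) than in 8226R5 (9.29 and 9.14), by -1.56 ± 0.09 (adjusted p = 2.32e-07).

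In MM.1S treated with PRIMA-1Met, 9 of the 10 genes were lower on their brightest probe and MZB1 was higher (plot of responses by probe). By probe, 11 of 16 were lower and 4 higher, where 71.9% of all probes were called, 46.0% lower and 25.9% higher. The median change of the 10 genes was -1.19 log2 units, against -0.25 over all probes and -0.87 over the 9 measured housekeeping genes. Fewer cells of a type and less RNA per cell cannot be told apart in such bulk samples. Markers of other cell types moved in the same arrays: 4 of 11 measured rose and 1 fell, led by ALB (4.79 ± 0.10) and FCGR3A (at least 8.23-fold), while 3 rose and 3 fell with median scaling over all probes and 9 rose and 0 fell with scaling over probes detected on all arrays. Before normalization, with negative signals set to 0, their summed signal was 4547 to 4594 intensity units with PRIMA-1Met, against 1843 to 1966 with DMSO. The myeloid gene CD68 was detected on these 4 arrays and averaged 12.51 with PRIMA-1Met and 9.42 with DMSO. CD2 was detected on 1 of the 4 and CD3D, CD3E, PAX5, MS4A1 and LYZ on 0, and the part of other cells in the result was not tested.

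**Figure D2:**
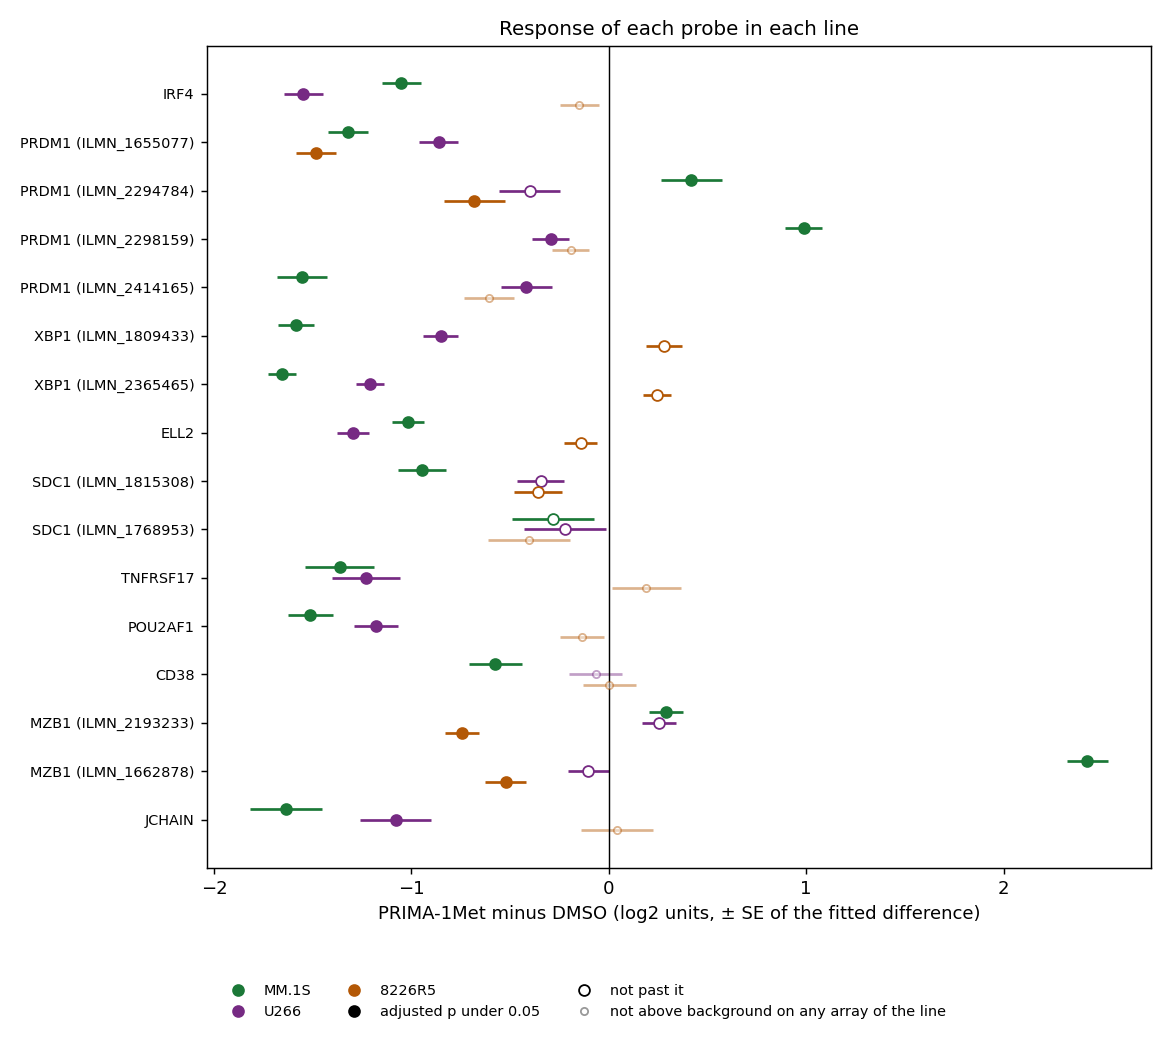
Fitted change with PRIMA-1Met, in log2 units with its standard error (horizontal axis), for the 16 tested probes in MM.1S, U266 and 8226R5. Filled points passed an adjusted p of 0.05, and small pale points were not above background on any array of the line. Most MM.1S and U266 points lie left of 0, and MZB1 ILMN_1662878 in MM.1S lies at 2.42.

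IRF4 was at 9.65 and 9.54 in treated MM.1S, against 10.73 and 10.56 with DMSO. In U266 it was at 8.48 and 8.51 with PRIMA-1Met, against 9.95 and 10.13 with DMSO. Both treated groups lay wholly below their controls. IRF4 fell by 1.05 ± 0.10 in MM.1S (SE, adjusted p = 9.11e-06) and fell by 1.55 ± 0.10 in U266 (adjusted p = 1.23e-05). In 8226R5 it was at 6.27 and 6.39, against 6.52 and 6.44 with DMSO, all below detection. The fall was larger in U266 than in MM.1S (MM.1S minus U266, 0.50 ± 0.14, adjusted p = 0.0129), but the order turned (-0.56) when arrays were scaled to their median over all probes. This difference also missed the threshold with no detection filter (adjusted p = 0.0773) and without MM.1S DMSO replicate 2 or U266 DMSO replicate 2.

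XBP1 was at 12.66 and 12.76 in treated MM.1S, against 14.20 and 14.38 with DMSO, and at 12.21 and 12.15 in treated U266, against 13.07 and 12.99 with DMSO. The groups did not overlap in either line. XBP1 fell by 1.58 ± 0.09 in MM.1S (adjusted p = 3.49e-07) and by 0.85 ± 0.09 in U266 (adjusted p = 0.000228). Its other probe, ILMN_2365465, which is annotated to another transcript variant, gave -1.65 ± 0.07 and -1.21 ± 0.07, both past the threshold. The fall was larger in MM.1S than in U266 on both probes (-0.73 ± 0.13 and -0.44 ± 0.10, adjusted p = 0.000851 and 0.00429), but both calls ended with scaling over probes detected on all arrays (-0.29 and -0.05, adjusted p = 0.0725 and 0.695). In 8226R5 the brighter probe was at 10.59 and 10.71, against 10.36 and 10.38 with DMSO, a difference of 0.28 ± 0.09 that missed the threshold (adjusted p = 0.0883). The array does not show which spliced form of the XBP1 transcript was present.

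PRDM1 was the one transcription factor of the set that was lower in all 3 lines on its brightest probe, ILMN_1655077. It was at 10.56 and 10.73 in treated MM.1S, against 11.99 and 11.94 with DMSO, and at 9.43 and 9.62 in treated U266, against 10.38 and 10.39 with DMSO. In treated 8226R5 it was at 7.18 and 7.06, against 8.68 and 8.52 with DMSO. No treated array reached its control arrays, and the falls were 1.32 ± 0.10, 0.86 ± 0.10 and 1.48 ± 0.10 in that order of lines (adjusted p = 2.27e-06, 0.000402 and 0.00011). The 8226R5 fall was larger than that of U266 (U266 minus 8226R5, 0.62 ± 0.14, adjusted p = 0.016) and its difference from that of MM.1S missed the threshold (MM.1S minus 8226R5, 0.16 ± 0.14, adjusted p = 0.342), turning to -1.23 with median scaling over all probes. The fall in MM.1S was larger than in U266 by -0.46 ± 0.14 (adjusted p = 0.0197). The U266 minus 8226R5 call ended with median scaling over all probes (0.22, adjusted p = 0.235), with no detection filter and without U266 DMSO replicate 1 or 2, U266 PRIMA-1Met replicate 2, 8226R5 DMSO replicate 1 or 8226R5 PRIMA-1Met replicate 2. The MM.1S minus U266 call ended with scaling over probes detected on all arrays (-0.28, adjusted p = 0.125), with no detection filter and without replicate 1 of MM.1S DMSO, MM.1S PRIMA-1Met or U266 DMSO or replicate 2 of U266 PRIMA-1Met.

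The other 3 PRDM1 probes did not follow one pattern, and 2 of them moved the opposite way in MM.1S (plot of PRDM1 and MZB1 probes). ILMN_2298159 was at 9.62 and 9.56 in treated MM.1S, against 8.58 and 8.63 with DMSO, and ILMN_2294784, annotated to another transcript variant, was at 9.52 and 9.41, against 9.13 and 8.96 with DMSO. The first rose by 0.99 ± 0.09 (adjusted p = 8.68e-06) and the second by 0.42 ± 0.15 (adjusted p = 0.0338), but both turned negative (-0.61 and -1.24) with median scaling over all probes, and the second missed the threshold without MM.1S DMSO replicate 2 (adjusted p = 0.166) or PRIMA-1Met replicate 1. Before normalization their signals were lower, not higher, with treatment: ILMN_2298159 read 261 and 252 intensity units in treated MM.1S, against 450 and 444 with DMSO, and ILMN_2294784 read 239 and 221, against 696 and 576 with DMSO. ILMN_2414165 was at 6.00 and 6.13, below detection, in treated MM.1S, against 7.57 and 7.66 with DMSO, which gave at least a 1.5-fold fall (adjusted p = 3.69e-06). In U266 these probes lay near background. ILMN_2298159 was below detection on both treated arrays, at least 1.05-fold lower than with DMSO (adjusted p = 0.0441). ILMN_2414165 was below detection on both treated arrays and on 1 of 2 DMSO arrays, averaging 5.99 with PRIMA-1Met and 6.41 with DMSO (adjusted p = 0.0397). Both calls ended in several alternatives, with adjusted p up to 0.211 and 0.445. ILMN_2294784 was detected on 1 of 2 treated arrays, and its difference of -0.40 missed the threshold (adjusted p = 0.0858). In 8226R5 all 3 were below detection on both treated arrays.

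**Figure D3:**
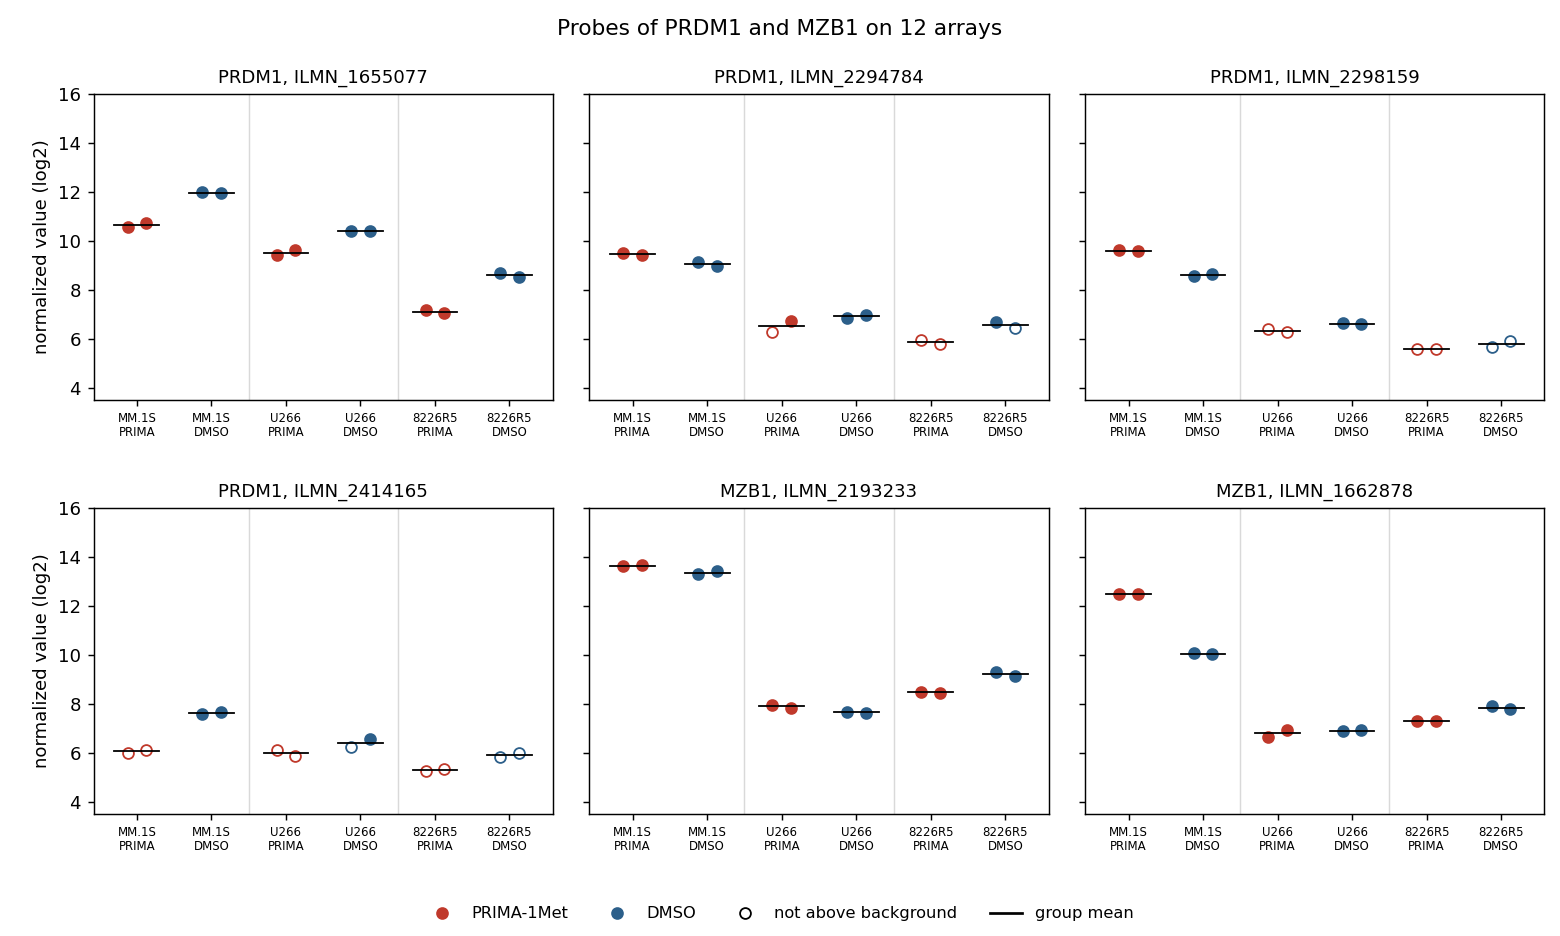
Normalized log2 value (vertical axis) of the 4 PRDM1 probes and the 2 MZB1 probes on each array, with PRIMA-1Met left of DMSO in each line; open points were not above background. In MM.1S the PRDM1 probe ILMN_1655077 lies at 10.56 and 10.73 with PRIMA-1Met and 11.99 and 11.94 with DMSO, while ILMN_2298159 lies at 9.62 and 9.56 with PRIMA-1Met and 8.58 and 8.63 with DMSO.

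ELL2 was at 7.38 and 7.51 in treated MM.1S, against 8.48 and 8.45 with DMSO. Treated U266 had 9.39 and 9.47, against 10.68 and 10.77 with DMSO. The fall was 1.02 ± 0.08 in MM.1S and 1.30 ± 0.08 in U266 (adjusted p = 3.19e-06 and 1.14e-05), and the groups were apart in both lines. ELL2 in 8226R5 was at 8.32 and 8.26, against 8.46 and 8.40 with DMSO, a difference of -0.14 ± 0.08 that missed the threshold (adjusted p = 0.333). MM.1S and 8226R5, whose controls overlapped, differed in response by -0.88 ± 0.12 (adjusted p = 0.000137).

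POU2AF1 was at 9.75 and 9.70 in treated MM.1S, against 11.32 and 11.15 with DMSO, and at 9.85 and 9.96 in treated U266, against 11.07 and 11.10 with DMSO. It fell by 1.51 ± 0.11 and 1.18 ± 0.11 (adjusted p = 2e-06 and 0.000141), with no overlap in either line. The difference between these lines (-0.33 ± 0.16) missed the threshold (adjusted p = 0.101).

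Of the surface genes, TNFRSF17 was at 12.68 and 12.71 in treated MM.1S, against 14.09 and 14.03 with DMSO. In treated U266 it was at 12.9996 and 12.88, against 14.18 and 14.16 with DMSO. Every treated array lay below every control array of its line, and TNFRSF17 fell by 1.36 ± 0.17 and 1.23 ± 0.17 (adjusted p = 7.04e-05 and 0.00113). The difference between the 2 responses missed the threshold (-0.13 ± 0.25, adjusted p = 0.666). These standard errors are pooled over the 6 groups and take in 8226R5, where the probe was below background. Standard deviations between arrays were 0.47 and 0.11 in 8226R5, against 0.01 to 0.08 in MM.1S and U266.

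SDC1 was at 10.69 and 10.69 in treated MM.1S, against 11.70 and 11.58 with DMSO, on its brightest probe, and fell by 0.95 ± 0.12 (adjusted p = 6.8e-05). U266 had 12.16 and 12.11 with PRIMA-1Met, against 12.59 and 12.37 with DMSO, and 8226R5 had 6.53 and 6.44, against 7.01 and 6.68 with DMSO. The treated arrays were the lower ones in both lines, but the differences of -0.35 ± 0.12 and -0.36 ± 0.12 missed the threshold (adjusted p = 0.0636 and 0.103). The fall in MM.1S was larger than the change in U266 (-0.60 ± 0.17, adjusted p = 0.013), though not past the threshold with no detection filter (adjusted p = 0.0628) or without U266 DMSO replicate 2. Its dim probe, ILMN_1768953, was detected on 3 of 12 arrays and passed in no line.

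CD38 could be compared only in MM.1S, where it was at 8.85 and 8.65 with PRIMA-1Met, against 9.24 and 9.41 with DMSO. It fell by 0.58 ± 0.13 (adjusted p = 0.00342), the smallest fall among the brightest probes called lower in that line.

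JCHAIN was at 13.29 and 13.25 in treated MM.1S, against 14.78 and 15.03 with DMSO, and at 12.37 and 12.30 in treated U266, against 13.45 and 13.38 with DMSO. The treated and control arrays were well apart. The fall was 1.64 ± 0.18 in MM.1S and 1.08 ± 0.18 in U266 (adjusted p = 2.63e-05 and 0.00266), and the difference between them (-0.56 ± 0.26) missed the threshold (adjusted p = 0.089). Here too the pooled standard error takes in 8226R5 arrays at background, with standard deviations of 0.41 and 0.24. They were 0.03 and 0.18 in MM.1S and 0.05 and 0.05 in U266.

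MZB1 went the other way in MM.1S. Its probe ILMN_1662878 was at 12.48 and 12.47 with PRIMA-1Met, against 10.08 and 10.03 with DMSO, and rose by 2.42 ± 0.10 (adjusted p = 5.58e-08), with values of 1.23 to 2.99 over the alternatives tried. Its signal before normalization was 2841 and 2784 intensity units with PRIMA-1Met, against 1394 and 1267 with DMSO. The brighter probe, ILMN_2193233, was at 13.61 and 13.65, against 13.28 and 13.40 with DMSO, and rose by 0.29 ± 0.09 (adjusted p = 0.0132), although it was at -0.22 with median scaling over all probes, it missed the threshold without MM.1S DMSO replicate 1 (adjusted p = 0.0917) and its signal before normalization was lower with PRIMA-1Met (8951 and 9420 intensity units) than with DMSO (11720 and 12300). The same gene thus gave changes of unlike size on probes annotated to one transcript. In U266 neither passed, with 7.96 and 7.85 against 7.68 and 7.62 with DMSO on the brighter probe. In 8226R5 both fell, to 8.49 and 8.46 with PRIMA-1Met, against 9.29 and 9.14 with DMSO, on the brighter probe (-0.75 ± 0.09, adjusted p = 0.00152) and by 0.52 ± 0.10 on the other (adjusted p = 0.0161).

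In U266, 10 of 16 probes were lower with PRIMA-1Met and 0 higher, where 26.0% of all probes were called, 14% lower and 12% higher. Of the 10, 2 were the PRDM1 probes below detection on both treated arrays. The calls covered 7 genes on their brightest probe, with SDC1, CD38 and MZB1 not past the threshold, and the median of the 10 genes was -0.97 against -0.01 over all probes. Markers of other cell types moved here too: 5 of 11 rose and 0 fell, led by ALB (2.52 ± 0.10) and CD14 (at least 2.03-fold), while 4 rose and 3 fell with median scaling over all probes and 8 rose and 1 fell with scaling over probes detected on all arrays. Before normalization, with negative signals set to 0, their summed signal was 1425 to 1519 intensity units with PRIMA-1Met, against 1255 to 1281 with DMSO. CD68 (9.62 with PRIMA-1Met and 9.11 with DMSO on average) and CD2 (6.64 and 6.63) were detected on all 4 U266 arrays and CD3D, CD3E, PAX5, MS4A1 and LYZ on 0, and the part of other cells in the result was not tested. Without the arrays labelled 8226R5 in the fit, 15 probes were called in MM.1S and 8 in U266, where the 2 dim PRDM1 probes no longer passed. In 8226R5, 5 of 16 probes were lower and 0 higher, where 9.09% of all probes were called, 4.08% lower and 5.02% higher, and 4 of the 5 were detected in that line. They were 3 PRDM1 and 2 MZB1 probes. Of the markers of other cell types 2 of 11 rose in 8226R5, CD14 (0.80 ± 0.18) and ALB (0.49 ± 0.10), and 0 fell. Their summed signal before normalization was 21056 to 22174 intensity units with PRIMA-1Met, against 17130 to 18315 with DMSO. The 90th percentile signal of the whole arrays was also higher, at 870 and 864.5 with PRIMA-1Met, against 696.6 and 705.2 with DMSO. Leaving out 1 array moved the count in 8226R5 to 2 without DMSO replicate 1, DMSO replicate 2 or PRIMA-1Met replicate 2, and to 3 without PRIMA-1Met replicate 1. The same 9 probes, of 7 genes, were lower in both MM.1S and U266, where 9.63% of all probes were. Of the 16, 2 were lower in all 3 lines (0.718% of all probes), both of PRDM1. One of them, ILMN_2414165, was below detection on the treated arrays of all 3 lines and on the 8226R5 DMSO arrays. It was detected on 3 arrays, all with DMSO, so it entered the tests only through controls. Its 8226R5 difference lies within background.

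The responses of MM.1S and U266 differed for 10 of 16 probes, 4 higher and 6 lower in MM.1S minus U266, where 59.4% of all probes were called, 22.6% higher and 36.8% lower. MM.1S and 8226R5 differed for 14 (4 higher, 10 lower), where 63.5% were called, 23.7% higher and 39.8% lower, but only 8 of the 16 were detected in both lines, of which 7 were called. U266 and 8226R5 differed for 9 (2 higher, 7 lower), where 19.3% were called, 8.49% higher and 10.8% lower, and 5 of the 8 detected in both lines were called. For the others the 8226R5 side of the difference is a probe at background.

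The study's own criterion was a change of at least 2-fold, applied here with no test. It took 10 of 16 probes in MM.1S (29.9% of all probes), 6 in U266 (2.39%) and 1 in 8226R5, the brightest PRDM1 probe (0.532%). In U266 these were IRF4, ELL2, TNFRSF17, POU2AF1, JCHAIN and the dimmer XBP1 probe. Responses differed by as much for 3 probes between MM.1S and U266 (26.6%), 9 between MM.1S and 8226R5 (33.1%) and 7 between U266 and 8226R5 (4.47%). The controls differed by as much for 11 between MM.1S and U266 (19.5%), 14 between MM.1S and 8226R5 (23.3%) and 10 between U266 and 8226R5 (26.6%).

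The size of the MM.1S changes depended on how arrays were scaled (plot of 4 scalings). Over all probes the median change in MM.1S was -0.25 in the authors' values, -0.26 after limma's own background correction and quantile normalization (neqc), -1.13 with median scaling over all probes and 0.63 with median scaling over the probes detected on all arrays. Relative to these, the median of the 10 genes was -0.94, -0.998, -1.37 and -1.37. The 9 genes other than MZB1 were called lower under each of the 4. In U266 the 7 genes named above were called lower under each, and the median relative to all probes was between -0.96 and -0.85.

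**Figure D4:**
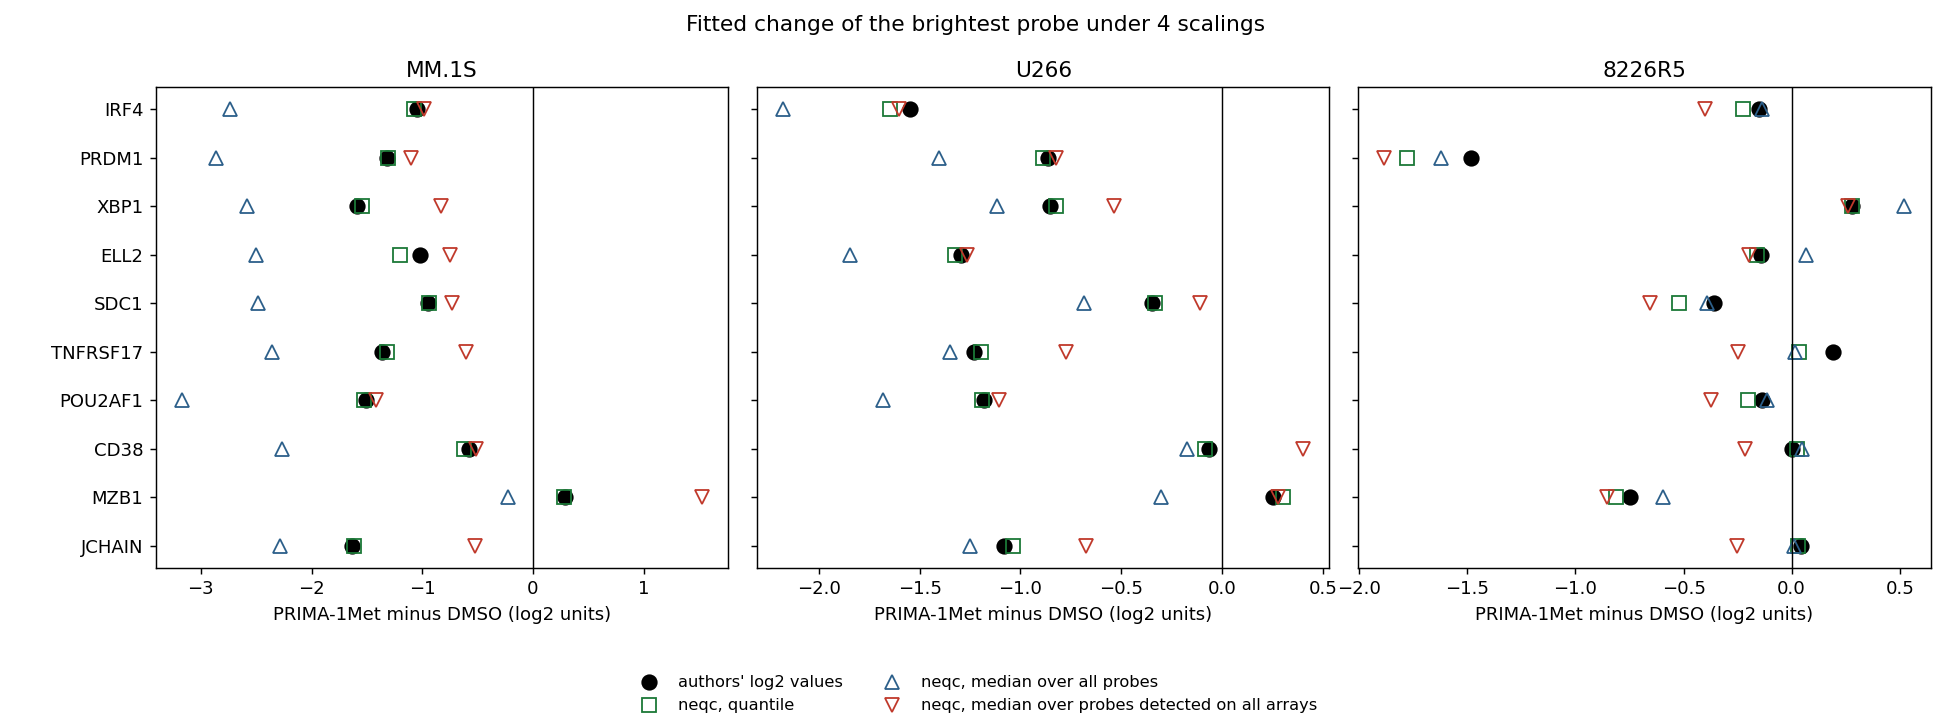
Fitted change with PRIMA-1Met in log2 units (horizontal axis) of the brightest probe of each gene in MM.1S, U266 and 8226R5 under 4 ways of scaling the arrays. In MM.1S the values of IRF4 run from -2.74 to -0.98 and those of MZB1 from -0.22 to 1.53, on both sides of 0.

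IRF4 across the 12 arrays was most like PIM2, a kinase of myeloma cells (Pearson r = 0.997), TP53INP1 (0.995) and CHST15 (0.991), among 14828 probes with a gene symbol. PRDM1 was most like TAB1 (0.989), MSRB1 (0.987) and WDR4 (0.986). XBP1 was most like SPATS2L (0.994), MSRB3 (0.991) and TP53INP1 (0.989). Among the 10 genes themselves, IRF4 correlated at 0.976 with XBP1, 0.973 with JCHAIN and 0.971 with POU2AF1, but at 0.25 with ELL2 and at 0.495 with MZB1. The 12 points share 3 lines, which lie apart for these genes, so the values are a description with no test.

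Of 23 measured genes of the translocon and of XBP1-dependent secretion, 20 were lower and 0 higher in MM.1S, with a median of -0.91. Over all probes 46.0% were lower and 25.9% higher, with a median of -0.25. Of the housekeeping genes 8 of 9 were lower, with a median of -0.87. Of the secretory genes EDEM1, which marks misfolded glycoproteins for degradation, averaged 8.94 in treated MM.1S and 10.59 with DMSO. It fell by 1.65 ± 0.09 (SE, adjusted p = 1.97e-07). HSP90B1, the endoplasmic reticulum form of HSP90, fell by 1.49 ± 0.09. In U266 only 3 were lower and 1 higher, with a median of -0.02, where 14% of all probes were lower and 12% higher. There HSPA5, the chaperone BiP, rose by 0.48 ± 0.09 (adjusted p = 0.00494), although it stood at -0.10 with median scaling over all probes. In 8226R5, 0 were lower and 2 higher, HSPA5 with 0.47 ± 0.09 and SSR3, a translocon-associated protein, at least 1.5-fold. Over all probes 4.08% were lower and 5.02% higher there. Counts in this list moved with the scaling. With median scaling over all probes 20 were lower and 0 higher in U266, and 0 lower and 11 higher in 8226R5. The medians of the list were then -0.49 and 0.26, against -0.45 and 0.19 over all probes. With scaling over probes detected on all arrays 1 was lower and 6 higher in U266, and 17 lower and 3 higher in MM.1S.

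The other secretory genes were split, with 3 higher and 5 lower of 10 in MM.1S, but 0 higher and 9 lower with median scaling over all probes. In the authors' values 25.9% of all probes were higher and 46.0% lower in MM.1S. The shares were 12% and 14% in U266 and 5.02% and 4.08% in 8226R5. TXNDC5, a disulfide isomerase, averaged 13.32 in treated MM.1S and 15.21 with DMSO (-1.89 ± 0.08, adjusted p = 4.17e-08), though its other probe gave -0.43. CREB3L2, a membrane-bound transcription factor of the secretory pathway, fell by 1.20 ± 0.09 in MM.1S and 1.22 ± 0.09 in U266. In U266, where 4 of 10 fell and 1 rose, PIM2 fell by 1.35 ± 0.07 (adjusted p = 4.77e-06). In 8226R5 FKBP11, a prolyl isomerase, was the one called (-0.33 ± 0.08, adjusted p = 0.0354). The immunoglobulin list could not be assessed, since 1 of its 17 genes had a tested probe. That gene, IGLL1, was at 15.41 to 15.68 in MM.1S and U266 and 8.22 to 9.04 in 8226R5, and fell by 0.69 ± 0.10 in 8226R5 (adjusted p = 0.00377). IGLL1 resembles the light chain genes in sequence, so its values are uncertain.

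The partners of ELL2 in the super elongation complex, which releases paused RNA polymerase, were lower for 9 of 9 measured genes in MM.1S and 5 of 9 in U266, with medians of -0.83 and -0.51. Over all probes 46.0% were lower in MM.1S and 14% in U266, with medians of -0.25 and -0.01, and 8 of 9 housekeeping genes were lower in MM.1S and 2 of 9 in U266. The scaffold AFF1 fell by 1.35 ± 0.13 in MM.1S (adjusted p = 1.29e-05), and the cyclin CCNT2 was at least 1.76-fold lower, being below detection in treated MM.1S. CDK9, the kinase of the complex, fell by 1.06 ± 0.16 in U266 and by 0.70 ± 0.16 in 8226R5 (adjusted p = 0.00152 and 0.0283). ELL, the paralog of ELL2, fell by 0.87 ± 0.08 in U266. In 8226R5 CCNT2 rose by 0.53 ± 0.12, and 1 of 9 was called in each direction, where 4.08% of all probes were lower and 5.02% higher.

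The transcription factor partners of IRF4 and POU2AF1 had 5 of 7 lower and 1 higher in U266 (median -0.63), 1 lower and 0 higher in MM.1S (median 0.03) and 0 called in 8226R5 (median 0.05). Over all probes 14% were lower and 12% higher in U266 (median -0.01) and 46.0% lower and 25.9% higher in MM.1S (median -0.25). In 8226R5 4.08% were lower and 5.02% higher. The difference between lines was not tested for the list. POU2F2, the octamer factor OCT2, averaged 5.27, below detection, in treated U266 and 6.97 with DMSO, at least 1.33-fold lower. MEF2C fell by 0.85 ± 0.11 in U266 and KLF13 by 1.46 ± 0.12 in MM.1S. With median scaling over all probes 6 of 7 were lower in MM.1S, and with scaling over probes detected on all arrays 3 were higher and 1 lower.

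Of 14 other surface genes, 11 were lower and 1 higher in MM.1S, with a median of -0.99, where 46.0% of all probes were lower and 25.9% higher. With scaling over probes detected on all arrays 8 were lower and 4 higher. CD44, a hyaluronan receptor, fell by 1.40 ± 0.08 and IL6R, the receptor for the myeloma growth factor interleukin-6, fell by 1.498 ± 0.19. IL6R was detected on only 1 of the treated MM.1S arrays, averaging 6.76 there, and its other probe gave -1.03. In U266, 7 of 14 were lower and 0 higher, led by the integrin ITGA4 (-1.17 ± 0.28, adjusted p = 0.0134) and the chemokine receptor CXCR4 (-0.98 ± 0.09, adjusted p = 0.000114). In 8226R5, CD59, an inhibitor of complement, fell by 0.85 ± 0.12 and BST2 rose by 0.47 ± 0.07, among 2 lower and 1 higher of 14. The other CD59 probe gave -0.10. Over all probes 14% were lower and 12% higher in U266, and 4.08% lower and 5.02% higher in 8226R5.

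Ligands, sister receptors and adaptors of TNFRSF17 gave 2 higher and 2 lower of 6 in MM.1S, and 0 higher and 1 lower in both other lines. In MM.1S these counts became 0 higher and 5 lower with median scaling over all probes, and 4 higher and 1 lower with scaling over probes detected on all arrays. In the authors' values 25.9% of all probes were higher and 46.0% lower in MM.1S. The shares were 12% and 14% in U266 and 5.02% and 4.08% in 8226R5. The adaptor TRAF5 was at least 2.30-fold lower in treated MM.1S and fell by 0.44 ± 0.10 in 8226R5. TNFSF13B, which encodes the ligand BAFF, rose by 0.87 ± 0.10 in MM.1S on its brighter probe, but its other probe gave -0.36 and the brighter one -0.36 with median scaling over all probes. It fell by 0.67 ± 0.10 in U266 (adjusted p = 0.0016).

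Genes of the B cell stage, which PRDM1 represses, had 1 higher and 3 lower of 10 measured in MM.1S and in U266, and 0 higher and 2 lower in 8226R5. Over all probes 25.9% were higher and 46.0% lower in MM.1S, 12% and 14% in U266, and 5.02% and 4.08% in 8226R5. With median scaling over all probes the counts were 0 higher and 5 lower in MM.1S and 0 and 6 in U266, and with scaling over probes detected on all arrays they were 7 higher and 1 lower in MM.1S and 3 and 1 in U266. ID3, an inhibitor of E proteins, rose by 1.47 ± 0.13 in MM.1S and 0.93 ± 0.13 in U266 (adjusted p = 5.46e-06 and 0.000985), but stood at -0.02 in MM.1S with median scaling over all probes. BACH2 averaged 5.46, below detection, in treated MM.1S and 6.95 with DMSO. CIITA was at least 1.82-fold lower in 8226R5, and SPIB, which was not detected in MM.1S or U266, fell there by 0.85 ± 0.23 (adjusted p = 0.0479). Of 9 measured housekeeping genes, 0 rose and 8 fell in MM.1S (median -0.87), 0 rose and 2 fell in U266 (median -0.10) and 1 rose and 0 fell in 8226R5 (median 0.01). In MM.1S B2M fell by 1.45 ± 0.08 and PPIA was at least 1.52-fold lower on a probe below detection in the treated arrays, and in 8226R5 PPIA rose by 0.82 ± 0.16. ACTB and PGK1 fell by 0.60 ± 0.10 and 0.31 ± 0.09 in U266, though the other PGK1 probe gave 0.06. With median scaling over all probes 7 of the 9 fell in U266 (median -0.65), where the median over all probes was -0.45.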

How the data were processed

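Total RNA from 12 samples in 6 groups was hybridised to Illumina HumanHT-12 arrays. The deposited value table was taken as log2 values that the authors had quantile normalized, since the median, lowest and highest value are the same on all 12 arrays and the ranks are those of the signals. A second deposited table holds, per the file headers, average signals in intensity units (background-subtracted, since some are negative) and a detection p-value for each probe and array. BeadStudio, lumi and limma are named in the submitters' processing notes, and versions are not given in the sources used here. Columns were matched to samples by title, and 0 were unmatched. Signals of 9 arrays had 1 empty cell that displaced later rows, which was removed, and 1 probe was left out for want of a signal. Of 47321 probes 30111 had 1 gene symbol in the platform annotation, 8 several and 17202 none. Annotated transcripts are those of the array's design.

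A probe was kept where 2 or more arrays had a detection p under 0.01, which left 19357. The log2 values were fitted with limma 3.58.1 in R 4.3.3, with 1 mean for each of 6 groups (6 residual degrees of freedom), eBayes, two-sided tests and Benjamini-Hochberg adjustment over all kept probes in each of 9 comparisons. Each ± after a difference is the standard error from the fit, which pools the scatter of all 6 groups, also those where the probe was below background. For a group with neither array above background the fold is a bound, with that group set on each array to the higher of its own value and the dimmest detected probe. The brightest probe of a gene has the highest mean over the arrays. The number of arrays limits the precision.

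The 10 members and all lists were chosen with earlier results of these data known. The genes named were all probes of the 10 members, up to 2 genes of each other list in each line that passed the threshold with the largest changes, and the 3 genes most correlated with IRF4, PRDM1 and XBP1; CD3G, CD247 and IGLL1 were singled out after their values were seen. Alternatives were neqc with an offset of 16, 2 median scalings, other probe filters, 1 probe per gene, the study's 2-fold criterion, a replicate block, each line alone, each array left out and, chosen after seeing the data, a fit with no 8226R5 arrays. The fit was tested on simulated data.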

Additional observations from a re-analysis of the deposited data

Results flagged for a closer look

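The responses of the lines differed, by the test of the difference itself (limma, adjusted p under 0.05), for these genes on their brightest probe. Over all probes 59.4% were called in MM.1S minus U266, 63.5% in MM.1S minus 8226R5 and 19.3% in U266 minus 8226R5. The 5 of 10 genes called in MM.1S minus U266 were no larger a share than that of all probes. In MM.1S minus U266 the difference was 0.50 for IRF4, -0.46 for PRDM1, -0.73 for XBP1, -0.60 for SDC1 and -0.51 for CD38, which was not above background in U266. The IRF4 difference turned to -0.56 with median scaling over all probes. Each of the 5 lost its call in at least 1 alternative, with adjusted p up to 0.0773 for IRF4, 0.125 for PRDM1, 0.0725 for XBP1, 0.0628 for SDC1 and 0.142 for CD38.

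In MM.1S minus 8226R5 it was -1.86 for XBP1, -0.88 for ELL2, -0.59 for SDC1 and 1.03 for MZB1. It was -0.90 for IRF4, -1.55 for TNFRSF17, -1.38 for POU2AF1, -0.58 for CD38 and -1.68 for JCHAIN, none of which was above background on an array labelled 8226R5. The calls for SDC1, CD38 and JCHAIN ended in at least 1 alternative (adjusted p up to 0.753, 0.232 and 0.138).

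In U266 minus 8226R5 it was 0.62 for PRDM1, -1.13 for XBP1, -1.15 for ELL2 and 1.00 for MZB1. It was -1.40 for IRF4, -1.42 for TNFRSF17, -1.04 for POU2AF1 and -1.12 for JCHAIN, again not above background in 8226R5. The calls for PRDM1, MZB1 and JCHAIN ended in at least 1 alternative (0.22 for PRDM1, 0.29 for MZB1 and -0.42 for JCHAIN at the smallest, adjusted p up to 0.235, 0.0818 and 0.0705). In none of the 3 comparisons can the line be told apart from its p53 status, and in those with MM.1S the dose differs too.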

How the results depend on the processing

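Of 144 probe differences 103 were called, of which 76 kept direction and call in all settings, 22 lost the call in at least 1 and 8 changed sign in at least 1. The counts below are of probes of the 10 genes and show only how calls moved. They are not set against the share of all probes called in the same setting. In the main fit that share ran from 9.09% (8226R5 response) to 71.9% (MM.1S response). With only probes detected on all 12 arrays, which leaves fewer probes, the calls were 7 in MM.1S, 6 in U266, 6 for the response differences MM.1S minus U266 and MM.1S minus 8226R5, and 7, 6 and 7 for the controls MM.1S minus U266, MM.1S minus 8226R5 and U266 minus 8226R5. With 1 probe per gene, 10 probes of the set were tested. The calls were then 2 in 8226R5 and 5 and 9 for those response differences. For the controls MM.1S minus U266 and MM.1S minus 8226R5 they were 8 and 9. At 2-fold with no test they were 6 in U266, 1 in 8226R5, and 3 and 9 for those response differences. With no detection filter they were 2 in 8226R5 and 5 for MM.1S minus U266, and scaling over probes detected on all arrays gave 8 in 8226R5. Leaving out 1 array gave 14 to 16 calls in MM.1S, 8 to 11 in U266 and 2 to 5 in 8226R5, response differences of 7 to 11 (MM.1S minus U266), 13 to 14 (MM.1S minus 8226R5) and 7 to 10 (U266 minus 8226R5), and controls of 13 to 13, 14 to 14 and 12 to 14 in the order above. Deviations of same-numbered arrays correlated at 0.02, 0.00 and 0.01 in the 3 lines, so no shared deviation was seen. This does not show that same-numbered arrays were handled apart. The replicate block gave 15, 10 and 5 calls in the 3 lines, response differences of 9, 14 and 9, and controls of 13, 14 and 13.

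Median scaling over all probes changed the sign of PRDM1 ILMN_2294784 (-1.24) and ILMN_2298159 (-0.61) and MZB1 ILMN_2193233 (-0.22) in MM.1S and of MZB1 ILMN_2193233 in U266 (-0.30). It did so for the MM.1S minus U266 differences of ELL2 (-0.66), IRF4 (-0.56) and PRDM1 ILMN_2294784 (-0.20), and for the MM.1S minus 8226R5 differences of PRDM1 ILMN_1655077 (-1.23), ILMN_2294784 (-0.34) and ILMN_2298159 (-0.44). Scaling over probes detected on all arrays changed that of SDC1 ILMN_1768953 in MM.1S (1.09) and in MM.1S minus U266 (1.05), and of PRDM1 ILMN_2414165 in MM.1S minus 8226R5 (0.064). Causes were not tested. Probes below background, as 5 of the 10 genes were in 8226R5, give only bounds.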
